A study of Homo sapiens with 6 samples.

Results

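The genes described here are 46 WNT pathway genes, chosen by symbol: 12 ligands, 10 frizzled receptors, 4 co-receptors, 3 dishevelled proteins, 4 genes of the destruction complex, 4 TCF/LEF factors, 7 feedback and secreted inhibitors, and 2 genes of ligand secretion. Each matched 1 of the 67140 gene identifiers in the deposited count table. RNA was sequenced from the human line KYSE150, derived from a squamous carcinoma of the esophagus, in 3 samples that carried a control hairpin (shCtrl) and 3 that carried a hairpin against the long noncoding RNA AC007128.1 (shAC007128.1). The stable lines were made with lentivirus and puromycin, 1 hairpin and 1 control were used, and nothing in the labels says whether the samples of a group were separate cultures, so p-values measure only the spread between these samples, which may be technical. The depth was 72354339, 78610457 and 65140326 counts for shCtrl replicates 1 to 3 and 57880388, 55764405 and 60158244 counts for shAC007128.1 replicates 1 to 3.

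WNT proteins are secreted lipid-modified ligands. PORCN attaches the lipid and WLS carries the ligand to the cell surface, where it binds a frizzled receptor together with LRP5 or LRP6. Dishevelled proteins then hold back the destruction complex of AXIN, APC and GSK3, beta-catenin accumulates, and TCF/LEF factors switch on target genes. Several targets, among them AXIN2, NKD1, RNF43 and ZNRF3, dampen the pathway in turn. Other ligands, such as WNT5A, are known for signaling through ROR receptors without beta-catenin.

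The hairpin was matched to the transcript it names before any WNT gene was read. Its 19-base stem matched 1 GENCODE v44 transcript, in exon 6 of 7 of ENSG00000229970, at chr7:8343202-8343220 on the plus strand of hg38. It is shown with 5 flanking bases on each side and the stem in capitals, since it defines the treated group.
AC007128.1 site: acctaCCACAAGTCCTGGCACATTgaggg

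AC007128.1 was counted 69, 33 and 53 times in shCtrl replicates 1, 2 and 3, and 18, 37 and 15 times in shAC007128.1 replicates 1, 2 and 3. After TMM scaling this was 0.943, 0.410 and 0.781 CPM (counts scaled to a common library size) in shCtrl and 0.320, 0.674 and 0.258 CPM in shAC007128.1. The groups overlapped, because shAC007128.1 replicate 2 lay above shCtrl replicate 2. The log2 fold change of shAC007128.1 over shCtrl was -0.77 (standard error, SE, 0.51; adjusted p = 0.271 by edgeR), and -0.51 to -1.29 with 1 sample left out, never past the limit, so a lower level of the target was not detected at this depth, and samples were grouped below by their titles, where shCtrl is written shNC. For all 6 samples alike, the growth text of the submitters gives shCtrl and the treatment text gives shAC007128.1. Other genes share 42.2% of its exonic bases, so its count is uncertain. Only these counts, from libraries selected for poly-A, were read here, and no other measure of the target.

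Of the 46 genes, 34 had a mean above 1 CPM in either group, and the same number was above 1 CPM in both. The edgeR filter on low counts left 38 of them among 19254 genes tested. A gene is said to have risen or fallen when its p in edgeR's quasi-likelihood test, adjusted by Benjamini-Hochberg over all genes tested, was at most 0.05, and to be called when its log2 fold change was also at least 1 in size. Among the 38, 10 rose in shAC007128.1 cells and 8 fell, which is 26.3% and 21.1%. Among all genes tested 21% rose and 19.8% fell. Called genes were 3 higher and 4 lower, WNT5A (below) among the 4, or 7.89% and 10.5%, against 5.57% and 10.1% of all genes tested. The median log2 fold change was -0.03, also with WNT5A set to its bound, and -0.02 over all genes tested. These shares lie near those of all genes tested. The shAC007128.1 libraries were shallower than the shCtrl libraries. With every library thinned to the smallest total, an alternative added after seeing the data, all 7 called members remained called.

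**Figure D1:**
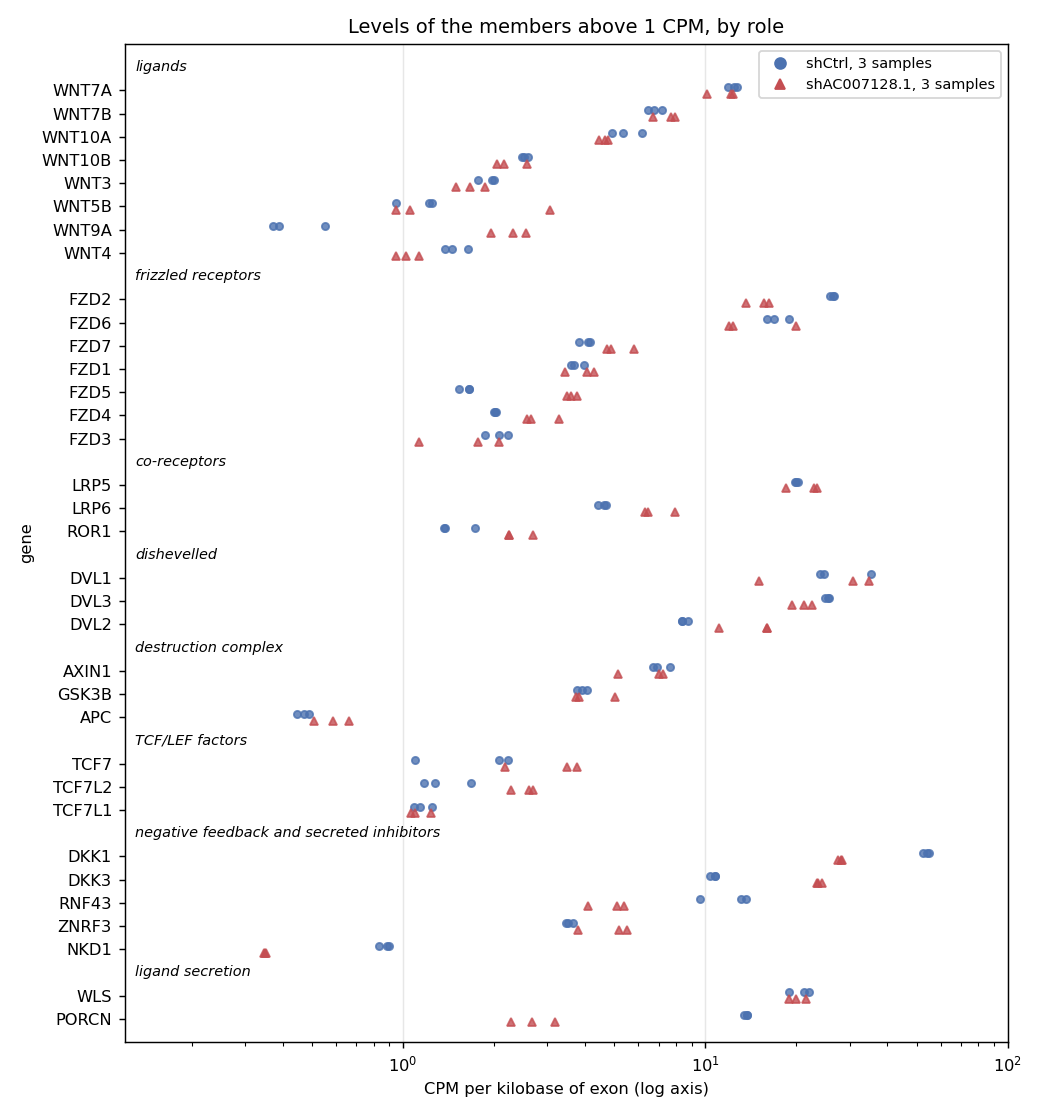
Levels of the 34 genes above 1 CPM, in CPM per kilobase of exon on a log axis, by role, with each of the 3 shCtrl samples as a circle and each of the 3 shAC007128.1 samples as a triangle. DKK1 lies highest in shCtrl, at 53.8, and PORCN and NKD1 show triangles well to the left of their circles.

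The 12 ligands held 8 above 1 CPM, and 10 were tested, of which 1 rose, 2 fell and 7 did not pass. The shares that rose and fell were 10% and 20%, against 21% and 19.8% of all genes tested. WNT7A led them by level per kilobase of exon, at 12.4 CPM per kilobase in shCtrl and 11.5 in shAC007128.1 cells. It read 57.7, 53.9 and 56.1 CPM in shCtrl replicates 1, 2 and 3, and 55.7, 55.2 and 45.9 CPM in shAC007128.1 replicates 1, 2 and 3. The groups overlapped, and the log2 fold change was -0.10 (SE 0.10, adjusted p = 0.470 by edgeR). WNT7A made up 37.5% ± 0.783 (SD, n = 3) of the summed ligand level per kilobase in shCtrl and 35.3% ± 0.667 in shAC007128.1. The sum itself was 32.9 ± 0.658 CPM per kilobase in shCtrl and 32.7 ± 3.36 in shAC007128.1.

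WNT9A, on chromosome 1 from 227918656 to 227947932, rose most. It read 1.56, 1.49 and 2.21 CPM in shCtrl replicates 1, 2 and 3, and 10.2, 9.27 and 7.85 CPM in shAC007128.1 replicates 1, 2 and 3. All 3 shAC007128.1 samples lay above all 3 shCtrl samples. The log2 fold change was 2.38 (SE 0.22, adjusted p = 0.000209 by edgeR). Its part of the summed ligand level went from 1.33% ± 0.282 to 6.94% ± 0.227 (SD, n = 3).

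WNT5A, a ligand best known for signaling without beta-catenin, was counted 88, 67 and 57 times in shCtrl replicates 1, 2 and 3 and 0 times in each shAC007128.1 sample. Taking 3 counts per library as the smallest detectable level, a mean of 0.0532 CPM in shAC007128.1, the level was at least 18-fold lower there if the table holds counts of single fragments, and at least 4.5-fold lower with counts divided by 4. The edgeR adjusted p was 0.000763. The mean in shCtrl was 0.959 CPM, so WNT5A was called lower without reaching the 1 CPM limit, and it passed the filter on low counts through shCtrl alone. It was also called with no filter.

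WNT4 fell by 0.53 on the log2 scale (SE 0.15, adjusted p = 0.0287 by edgeR), with groups that did not overlap, and it did not pass without shCtrl replicate 1 or 2 or without shAC007128.1 replicate 2. WNT6, at or below 1 CPM, was counted 7 to 80 times, and its log2 fold change of -1.55 missed the limit at an adjusted p of 0.0510 by edgeR, with 0.0198 to 0.145 over the alternatives. WNT5B had a log2 fold change of 0.57, and here 1 library decided the value: shAC007128.1 replicate 1 read 13.0 CPM against 4.46 and 4.03 CPM in the other shAC007128.1 samples, and without it the value was -0.19. WNT7B had a log2 fold change of 0.13, WNT10A of -0.25, WNT10B of -0.16 and WNT3 of -0.19, none past the limit. WNT11 was counted 0 to 32 times and was left out by the filter on low counts in the main fit. Of the alternatives, it passed, as lower, only without shAC007128.1 replicate 2. The other shAC007128.1 samples were at 0 counts, so WNT11 entered that test through shCtrl alone. WNT3A was counted 0 times in every sample.

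Frizzled receptors bind the ligands at the cell surface. Of the 10, 7 were above 1 CPM and tested, and 3 rose and 1 fell, where 21% and 19.8% of all genes tested did. FZD2 led by mean level per kilobase over all samples, though FZD6 lay above it in 1 of the 6. FZD2 was counted 7364, 8044 and 6620 times in shCtrl replicates 1, 2 and 3, and 3443, 3231 and 2988 times in shAC007128.1 replicates 1, 2 and 3, with scaled means of 99.4 and 57.2 CPM. The groups stood apart, with a log2 fold change of -0.80 (SE 0.09, adjusted p = 0.000469 by edgeR). FZD2 made up 46.2% ± 1.28 (SD, n = 3) of the summed frizzled level per kilobase in shCtrl cells and 32.4% ± 4.90 in shAC007128.1 cells.

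FZD5, on chromosome 2, was the called frizzled. It read 11.6, 10.8 and 11.6 CPM in shCtrl replicates 1, 2 and 3, and 26.6, 24.6 and 25.3 CPM in shAC007128.1 replicates 1, 2 and 3. Every shAC007128.1 sample lay above every shCtrl sample, with a log2 fold change of 1.17 (SE 0.10, adjusted p = 0.000154 by edgeR). FZD4 rose by 0.49 and FZD7 by 0.35 on the log2 scale. PRSS23, on the opposite strand, shares 18.9% of the exonic bases of FZD4 at 202.8 CPM in shCtrl and 214.3 CPM in shAC007128.1, so the count of FZD4 is uncertain. Neither passed when any 1 shCtrl replicate was left out, and FZD7 did not pass either without shAC007128.1 replicate 2 or under DESeq2, library size scaling, no filter and thinning. FZD6 had a log2 fold change of -0.23, with shAC007128.1 replicate 3 at 80.8 CPM and the other shAC007128.1 samples at 50.1 and 48.7 CPM. Without that replicate its value was -0.51 and passed. Without shAC007128.1 replicate 1 it was -0.11 and without replicate 2 it was -0.09, neither past the limit. FZD3 was at -0.30 (-0.09 without shAC007128.1 replicate 1 and -0.51 without replicate 3) and FZD1 at 0.07, neither past the limit. FZD9 was counted 0 to 5 times, and FZD8 and FZD10 0 times in every sample.

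Among the co-receptors LRP5 led by level per kilobase, at 122.3, 123.7 and 124.8 CPM in shCtrl replicates 1, 2 and 3, and 144.2, 141.4 and 114.4 CPM in shAC007128.1 replicates 1, 2 and 3. The shAC007128.1 range enclosed the shCtrl range, and the log2 fold change was 0.11 (SE 0.10, adjusted p = 0.422 by edgeR). Without shAC007128.1 replicate 3 it was 0.20 and passed. It was 0.046 without replicate 1, 0.067 without replicate 2 and 0.036 with library size only, none past the limit. LRP6, the other beta-catenin co-receptor, rose by 0.60 on the log2 scale (SE 0.11, adjusted p = 0.00407 by edgeR). ROR1, a receptor for WNT5A-type ligands, rose by 0.68. ROR2 was counted 0 to 83 times and did not pass.

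Among the dishevelled proteins, which relay the signal inside the cell, DVL1 led by mean level per kilobase over all samples, though DVL3 lay above it in 3 of the 6. DVL1 stood at 96.2, 92.7 and 136.7 CPM in shCtrl replicates 1, 2 and 3, and 134.8, 119.1 and 58.2 CPM in shAC007128.1 replicates 1, 2 and 3. Both groups were wide, and the log2 fold change of -0.06 (SE 0.30, adjusted p = 0.892 by edgeR) changed sign without shAC007128.1 replicate 3, to 0.22, or without shCtrl replicate 3, to 0.14. DVL2 rose by 0.75 and DVL3 fell by 0.27 on the log2 scale. DVL3 did not pass when any 1 shCtrl replicate or shAC007128.1 replicate 2 was left out.

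None of the 4 genes of the destruction complex passed in edgeR's test, where 40.8% of all genes tested did. AXIN1, the scaffold and the highest per kilobase, read 50.5, 52.1 and 57.6 CPM in shCtrl replicates 1, 2 and 3, and 54.7, 53.0 and 38.7 CPM in shAC007128.1 replicates 1, 2 and 3. The groups overlapped, with a log2 fold change of -0.13 (SE 0.14, adjusted p = 0.502 by edgeR). GSK3B, the kinase, had a log2 fold change of 0.10 and APC of 0.32. AXIN2, a classic feedback target, was counted 5 to 28 times.

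Among the TCF/LEF factors TCF7 led by mean level per kilobase over all samples, though TCF7L2 lay above it in 2 of the 6. TCF7 stood at 20.9, 11.03 and 22.5 CPM in shCtrl replicates 1, 2 and 3, and 21.9, 37.99 and 35.1 CPM in shAC007128.1 replicates 1, 2 and 3. The groups overlapped, and the log2 fold change of 0.80 (SE 0.31, adjusted p = 0.0721 by edgeR) passed without shAC007128.1 replicate 1 and under DESeq2. TCF7L2 rose by 0.88 on the log2 scale (SE 0.16, adjusted p = 0.00482 by edgeR). TCF7L1 was at -0.03 and did not pass. LEF1 was counted 0 to 4 times.

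Of the 7 feedback and secreted inhibitors, the 5 that were tested all passed, 2 higher and 3 lower, where 40.8% of all tested genes passed. DKK1, a secreted antagonist of LRP5 and LRP6 and the highest of the 46 per kilobase by the mean over all samples and in 4 of the 6, read 121.8, 119.6 and 116.8 CPM in shCtrl replicates 1, 2 and 3, and 62.9, 62.2 and 60.8 CPM in shAC007128.1 replicates 1, 2 and 3. The groups stood far apart for their spread, and DKK1 fell by 0.95 on the log2 scale (SE 0.07, adjusted p = 8.12e-05 by edgeR), just under the limit for a call, which it passed with library size scaling only, at -1.02.

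DKK3, a DKK family member, moved the other way. It read 128.2, 123.6 and 128.3 CPM in shCtrl replicates 1, 2 and 3, and 281.0, 290.8 and 280.3 CPM in shAC007128.1 replicates 1, 2 and 3. The log2 fold change was 1.17 (SE 0.06, adjusted p = 3.09e-05 by edgeR). Other genes share 47.5% of its exonic bases, chiefly USP47 on the opposite strand, and strand use in the counting is not given in the sources used here. USP47 itself had a log2 fold change of 0.27 (adjusted p = 0.119 by edgeR). Of the summed level per kilobase in this class, DKK1 made up 66.5% ± 2.16 (SD, n = 3) in shCtrl and 45.2% ± 1.06 in shAC007128.1, and DKK3 13.1% ± 0.484 and 38.5% ± 1.11. These shares and the rank of DKK1 rest on exon lengths of 2221 bases for DKK1 and 11958 bases for DKK3. By mean CPM, DKK3 lay above DKK1 in shCtrl, at 126.7 against 119.4, and in shAC007128.1, at 284.1 against 62.0.

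NKD1, which binds dishevelled, read 14.5, 15.6 and 15.4 CPM in shCtrl replicates 1, 2 and 3, and 6.08, 6.13 and 6.02 CPM in shAC007128.1 replicates 1, 2 and 3. The shAC007128.1 samples were close together and far below shCtrl, with a log2 fold change of -1.32 (SE 0.11, adjusted p = 0.000163 by edgeR). RNF43, a ligase that removes frizzled receptors, read 60.7, 86.0 and 83.0 CPM in shCtrl replicates 1, 2 and 3, and 33.9, 32.3 and 25.9 CPM in shAC007128.1 replicates 1, 2 and 3. Its groups did not overlap, with a log2 fold change of -1.32 (SE 0.16, adjusted p = 0.000786 by edgeR). Other annotated genes cover 69.0% of its exonic bases, so its count is uncertain, though the annotated partners were at mean levels of 0.204 to 0.340 CPM. ZNRF3, the related ligase, rose by 0.44 on the log2 scale (adjusted p = 0.0449 by edgeR) and did not pass under library size scaling, without the filter, or when any 1 of 5 samples was left out. NKD2 and SFRP1 were counted 0 times in every sample.

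PORCN, which attaches the lipid to the ligands and lies on chromosome X, was the member with the largest fall other than WNT5A. It read 77.8, 79.4 and 79.5 CPM in shCtrl replicates 1, 2 and 3, and 15.4, 18.5 and 13.2 CPM in shAC007128.1 replicates 1, 2 and 3. The log2 fold change was -2.33 (SE 0.13, adjusted p = 3.78e-05 by edgeR). WLS, the highest of the class per kilobase, read 94.3, 97.8 and 84.5 CPM in shCtrl replicates 1, 2 and 3, and 89.1, 84.1 and 96.2 CPM in shAC007128.1 replicates 1, 2 and 3. Its groups overlapped, with a log2 fold change of -0.04 (SE 0.09, adjusted p = 0.767 by edgeR).

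**Figure D2:**
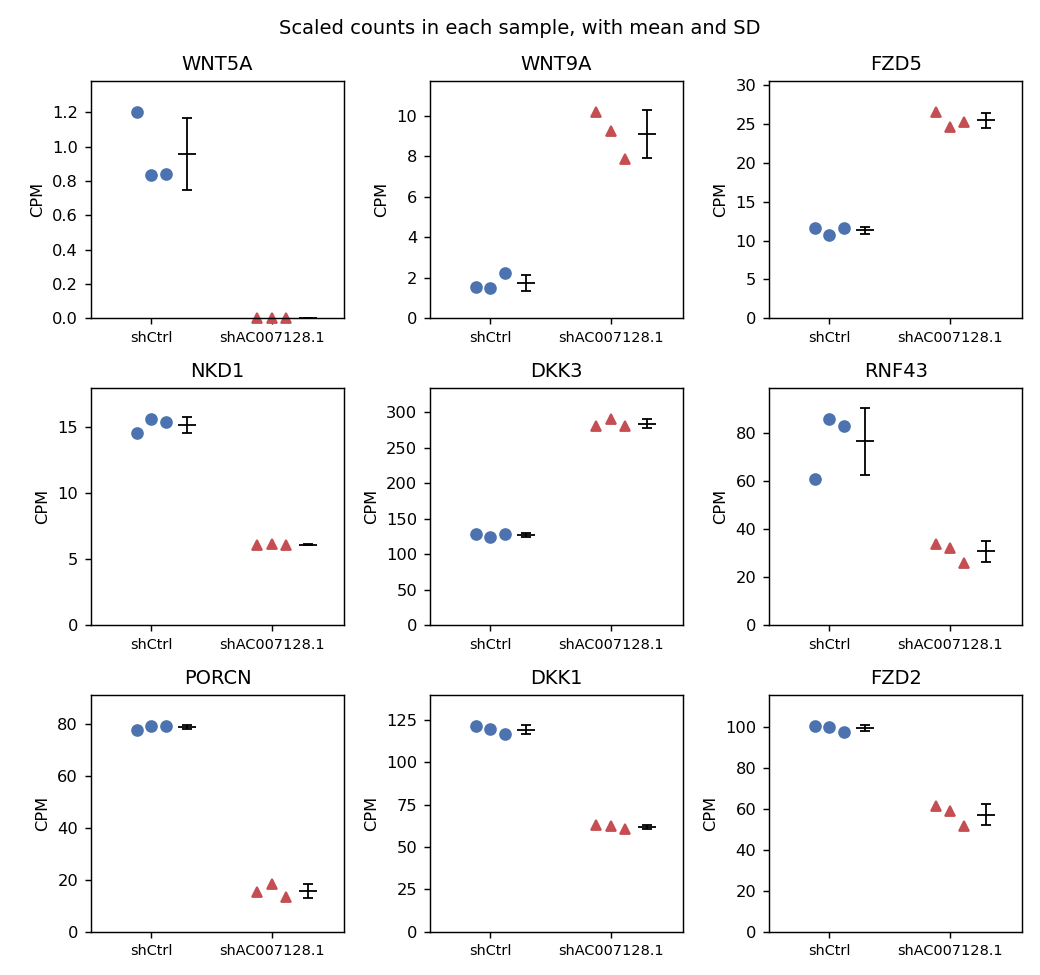
Scaled counts (CPM, linear axes from 0) of the 7 called genes, DKK1 and FZD2 in each of the 3 shCtrl (circles) and 3 shAC007128.1 samples (triangles), with the mean and SD of each group beside them. In every panel the groups stand apart, and WNT5A lies at 0 in all shAC007128.1 samples.

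**Figure D3:**
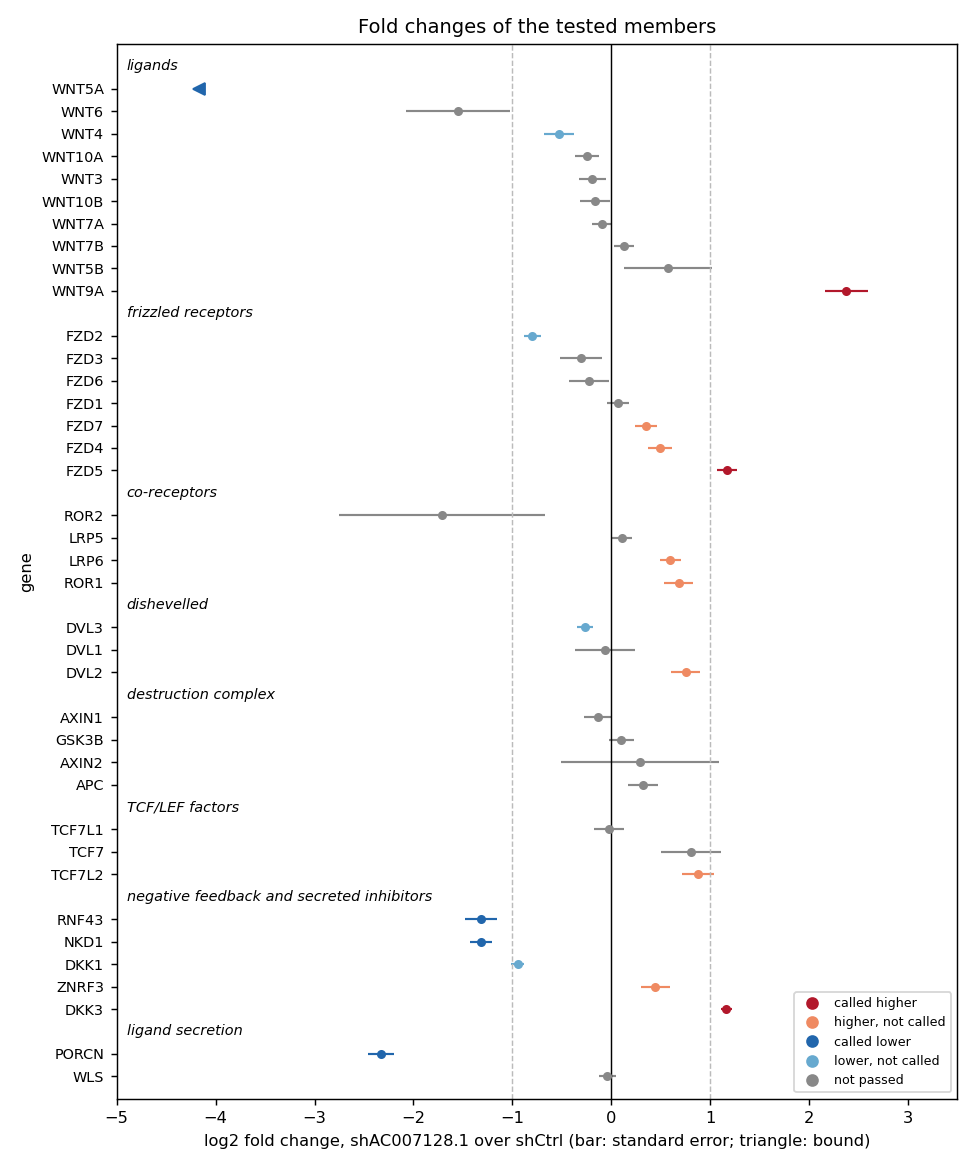
Log2 fold changes of shAC007128.1 over shCtrl for the 38 tested genes by role, with bars for the standard error and dashed lines at 1 and -1. WNT5A is drawn as a triangle at its bound, because its shAC007128.1 samples were at 0. PORCN reads -2.33 and WNT9A 2.38.

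The promoter window from 250 bases before to 50 after each start was read from RefSeq (GRCh38.p14) for the 32 members found there. WNT7B, WNT10B, WNT11, FZD2, FZD3, FZD6, FZD7, FZD10, LRP6, AXIN2, NKD1, DKK3, ZNRF3 and SFRP1 were not matched. The TCF/LEF core motifs CTTTGAT and CTTTGAA were searched on both strands. Of 41 windows of these members 1 held either motif, or 2.44%, against 6.86% of 35116 windows of the same length. The match was CTTTGAA, 95 bases before the DKK1 start. It is shown as the only match, at chr10:52314159-52314219 on the plus strand, with the motif in capitals.
DKK1 upstream: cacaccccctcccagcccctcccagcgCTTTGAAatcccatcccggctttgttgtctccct
The match is a description of these letters, not a site shown to be bound.

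Of 93 further pathway genes, 64 were tested, 16 rose and 14 fell, or 25.0% and 21.9%, again close to all genes. The 14 include DKKL1 and PRICKLE4, named after their values were seen, and TNFRSF19 (below). DKKL1 was counted 16 to 41 times in shCtrl and 0 to 4 times in shAC007128.1. PRICKLE4, whose exonic bases are shared to 91.0%, was counted 46 to 78 and 0 to 11 times. These genes passed the filter on low counts through shCtrl, so the share that fell rests in part on their shCtrl level. Their median log2 fold change was 0.02. WNT2B, another ligand, had the smallest p of the called genes. It read 31.2, 27.9 and 30.2 CPM in shCtrl replicates 1, 2 and 3, and 7.54, 6.52 and 6.57 CPM in shAC007128.1 replicates 1, 2 and 3, a log2 fold change of -2.11 (SE 0.11, adjusted p = 3.56e-05 by edgeR). Other genes share 21.5% of its exonic bases.

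CELSR3, a cadherin of planar polarity, had a log2 fold change of -1.55, and APC2, a relative of APC, of -1.34. Higher were LGR4, an R-spondin receptor, with a log2 fold change of 1.18, PPP2R5A, a phosphatase subunit, with 1.10 (0.997, no longer a call, without shAC007128.1 replicate 3), and the corepressors TLE3 and TLE4 with 1.42 and 1.46. Named after their values were seen, the corepressor TLE2 fell by 0.73, and RSPO4, an R-spondin, was called lower at -2.02. Beta-catenin itself (CTNNB1) read 211.1, 202.7 and 202.9 CPM in shCtrl replicates 1, 2 and 3, and 341.2, 346.1 and 340.3 CPM in shAC007128.1 replicates 1, 2 and 3. It rose by 0.74 on the log2 scale (SE 0.06, adjusted p = 0.000110 by edgeR).

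Of 16 target genes outside the members, 11 were tested, 2 rose, 2 fell and 7 did not pass. The shares that rose and fell were 18.2% each, near the 21% and 19.8% of all genes tested. Those that passed, named after their values were seen, were BMP4 and JAG1, which rose, and SOX9 and TNFRSF19, which fell. SOX9 passed whichever sample was left out, while BMP4 and JAG1 did not pass in 4 and TNFRSF19 in 5 of those 6 fits. BMP4 and TNFRSF19 were below 1 CPM in the mean of each group. BMP4 was counted 5 to 18 times in shCtrl and 20 to 75 times in shAC007128.1. It may have passed the filter on low counts through shAC007128.1 alone. TNFRSF19, counted 22 to 24 times in shCtrl and 0 to 5 times in shAC007128.1, passed the filter through shCtrl alone and did not pass with no filter. So 1 of the 2 targets that fell entered the test by its shCtrl level, and the share that fell leans on it. CCND1 and MYC, named by the rule, did not pass. CCND1 had a log2 fold change of 0.01 (SE 0.05, adjusted p = 0.869 by edgeR) and a mean of 364.4 CPM in shCtrl and 367.8 CPM in shAC007128.1. MYC had 0.27 (SE 0.34, adjusted p = 0.571 by edgeR), with shAC007128.1 samples at 17.4, 6.01 and 12.7 CPM, and -0.09 without shAC007128.1 replicate 1. Without shAC007128.1 replicate 2 it was 0.59 and passed (adjusted p = 0.0485 by edgeR, with 0.0485 to 0.850 over the alternatives).

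**Figure D4:**
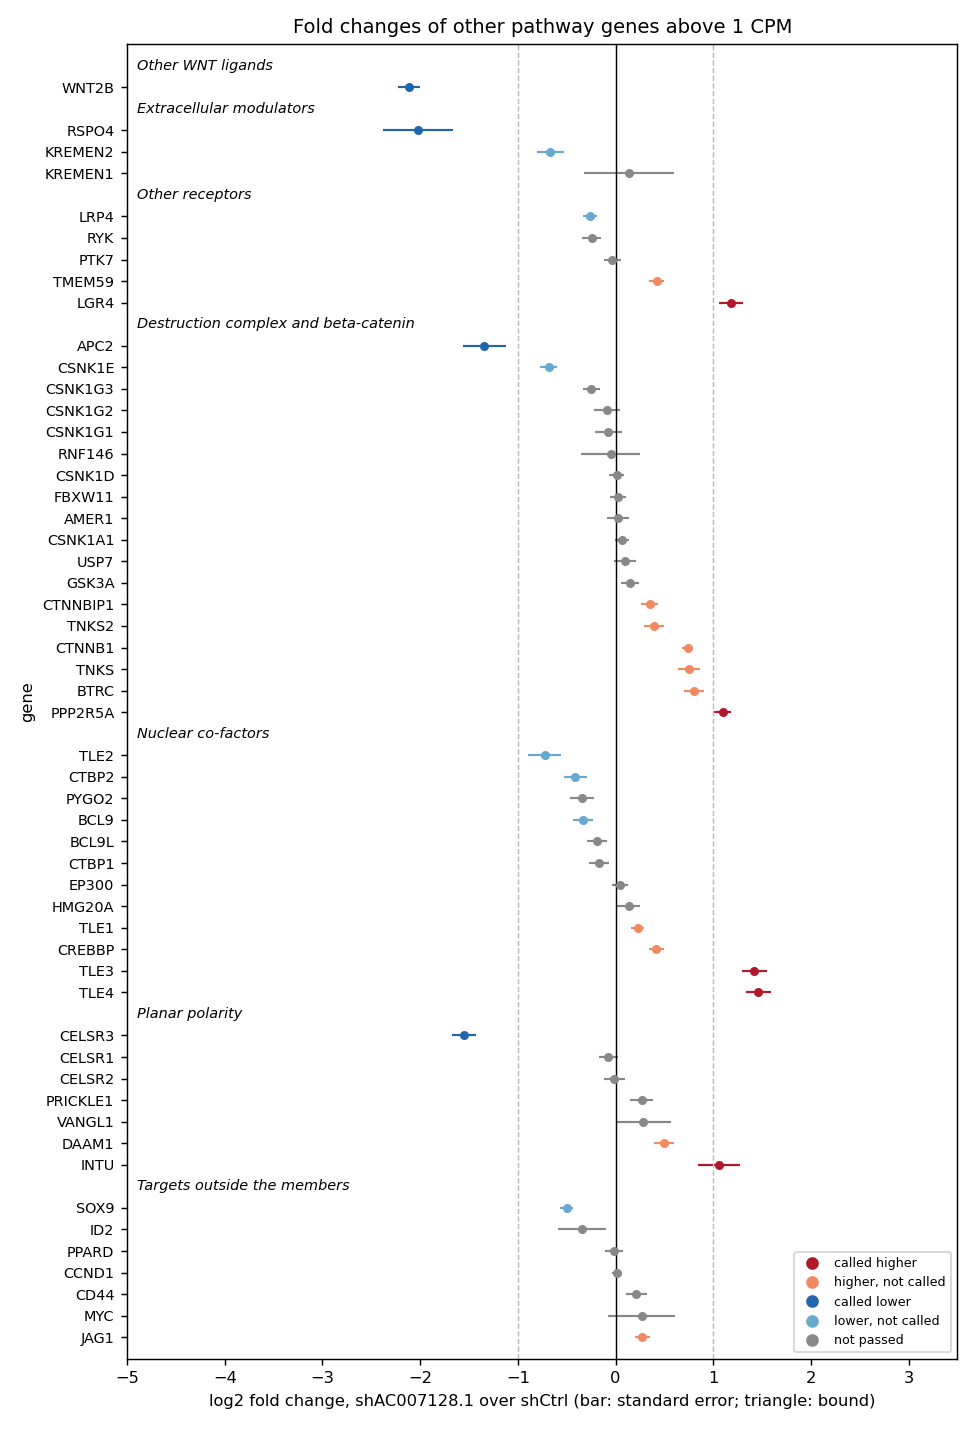
Log2 fold changes of shAC007128.1 over shCtrl for the 53 other pathway genes above 1 CPM, by list, with bars for the standard error and dashed lines at 1 and -1. CTNNB1 lies at 0.74 and CCND1 at 0.01.

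Cell identity was read from markers. All 10 squamous epithelium markers were tested, 7 rose and 1 fell (21% and 19.8% of all genes tested), and their summed level was 2379, 2350 and 2377 CPM in shCtrl replicates 1, 2 and 3, and 3866, 3534 and 3204 CPM in shAC007128.1 replicates 1, 2 and 3, with KRT5 the most abundant. The 6 fibroblast markers summed to 15.3 to 16.1 CPM in shCtrl and 20.9 to 23.9 CPM in shAC007128.1, led by COL1A1. The 3 tested all passed, where 40.8% of all genes tested did. LUM was called higher (log2 fold change 2.14), COL1A1 rose by 0.33 and PDGFRB was called lower (-1.60). PDGFRB was counted 24 to 51 times in shCtrl and 5 to 13 times in shAC007128.1. It passed the filter on low counts through shCtrl, so its call and its place among the 3 that passed lean on that filter. COL1A1 and PDGFRB each did not pass in 5 of the 6 fits that left out 1 sample. COL1A2, COL3A1 and DCN were counted at most 16 times in any sample. The 6 leukocyte markers summed to 59.4 to 68.3 CPM in shCtrl and 14.8 to 24.1 CPM in shAC007128.1, nearly all from CD68, whose exonic bases are shared to 85.6%, while PTPRC was counted at most 9 times. Of the 3 tested, CD68 was called lower (log2 fold change -1.87) and 2 did not pass. The 4 endothelium markers summed to 2.12 to 3.11 CPM in shCtrl and 0.302 to 2.02 CPM in shAC007128.1, and neither of the 2 tested passed. The mitochondrial share of counts was 9.69 to 10.2% in shCtrl and 7.80, 7.68 and 9.72% in shAC007128.1 replicates 1, 2 and 3. The part of these differences in the results above was not tested, and in bulk samples fewer cells of a type and less RNA per cell cannot be told apart.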

How the data were processed

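Per the methods of the study, reads were cleaned of rRNA, adapters and low quality, aligned to hg38 by TopHat, and turned into FPKM by Cufflinks. The submitters' processing notes name CASAVA 1.8 and TopHat2 2.0.6, with builds GRCh38 and mm10. The deposited values are expected counts per Ensembl gene, whole numbers and not normalized, which were used as they stood. The program that counted them is not given in the sources used here. In every sample more genes had a count of 4, 8 or 12 than of 3, 7 or 11. In total 0 sample columns were left unmapped.

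Genes were filtered with filterByExpr, brought to one scale by TMM and tested in edgeR 4.0.16 under R 4.3.3. The SE of a log2 fold change is its size over the root of F. Alternatives were DESeq2 1.42.0, other scalings, no filter, counts divided by 4, the replicate block and each sample left out. Floors of 3 counts cover counting error only. Exon lengths are from GENCODE v44, with all annotated exons of a gene merged. Levels per kilobase and their ranks depend on that choice. Steps were tested on simulated data. Genes named are AC007128.1, all members by role, and by rule up to 10 other pathway genes. Further pathway genes, and the fibroblast markers that passed, were named after their values were seen. 1 marker gene is not reported here. Members and lists were chosen with earlier results of these data known.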

Additional observations from a re-analysis of the deposited data

How the results depend on the processing

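All 7 called members kept their call and direction under every alternative run: DESeq2, both scalings, no filter, counts divided by 4, the replicate block, thinning and each sample left out. WNT5A was at 0 in all shAC007128.1 samples, so none of these alternatives could have turned its direction. Over all 492 single-member comparisons with an alternative, 443 kept direction and side of the limit. Leaving out each sample in turn gave 7 to 11 members higher and 6 to 9 lower, 3 to 4 called higher and 4 to 6 called lower, also the range over all alternatives for those called lower. It gave 8 to 15 other pathway genes lower, against 14 with all samples; fewer samples enter those fits. With the replicate block, 8 members rose and 6 fell, and WNT4, FZD7, DVL3 and ZNRF3 lost their pass. Same-numbered samples share only a number: their deviations correlated at 0.0306, -0.0254 and -0.0299. Of members, 34 to 37 were above the level limit over the scalings, limits and samples tried.

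The direction turned only in genes that had not passed; the cause was not tested. Leaving out each sample gave log2 fold changes from -0.19 (without shAC007128.1 replicate 1) to 0.85 for WNT5B, -0.30 to 0.22 for DVL1 (above 0, at 0.14, also without shCtrl replicate 3), -0.22 to 0.0018 for AXIN1 and -0.055 to 0.18 for GSK3B (both turned without shAC007128.1 replicate 3), -0.091 (without shCtrl replicate 1) to 1.23 for AXIN2, -0.095 to 0.029 for TCF7L1 and -0.10 to 0.011 for WLS (both turned without shCtrl replicate 2 or shAC007128.1 replicate 2, where TCF7L1 was at 0.022 and WLS, in the former, at 0.0021), and -0.092 (without shAC007128.1 replicate 1) to 0.59 for MYC. With library size only, FZD1 was at -0.0035 and CCND1 at -0.061. CCND1 was also at -0.013 with DESeq2, -0.030 with no filter, -0.0064 with counts divided by 4 and from -0.0089 (without shAC007128.1 replicate 3) to 0.022 over the samples left out. Leaving out 1 sample also moved WNT3, WNT7A, WNT7B, WNT10A, WNT10B, FZD1, FZD3 and ROR2 by over 1.5 times, none to a pass. Members at or below 1 CPM rest on low counts, and what more depth would show for them was not tested.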
